A study of Homo sapiens with 20 samples.

Results

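Dense groups of open chromatin away from protein-coding gene ends were followed in RKO, an established human colon adenocarcinoma cell line, with LOVO, a second such line, beside it. A peak counted as distal when it lay more than 1 kb from either end of every protein-coding gene (RefSeq annotation of hg38) on chromosomes 1 to 22. Distal peaks of the merged untreated RKO shControl list were chained where the gap to the next was at most 12.5 kb, and chains of 5 or more peaks were taken as clusters. This gave 231 peaks in 41 clusters, out of 27978 peaks in that list and 16539 distal ones. The 16308 distal peaks in shorter chains served as the background. The number of peaks, their spacing and their presence in this list chose the clusters and are therefore a description.

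Accessibility was measured by ATAC-seq, which reads where a transposase can insert adapters into DNA. METTL3, the enzyme that methylates adenosines of RNA (m6A), was knocked down with a short hairpin (shMETTL3), and control cells held a control hairpin (shControl). Cells of both kinds were untreated or received olaparib, a drug that blocks poly(ADP-ribose) polymerases. The labels name 20 samples: each line has 4 shControl samples without drug, 2 of them of a second batch, 2 shMETTL3 samples without drug, and 2 samples of either hairpin under olaparib. The dose and length of the olaparib treatment, the hairpin sequences and whether a line is 1 clone are among the details not given in the labels. The deposited data are 10 peak lists, 5 per line, each standing for a group: a merged list without scores and a scored list for untreated shControl, a merged list for shMETTL3, and a scored list for each olaparib group. The lists are named for groups and not for samples, although peak names in the scored lists are those of replicate 1. The spread between samples therefore cannot be given, and no comparison has a test. Which list holds the second batch is not known, so list form and batch cannot be told apart between the control lists. The RKO lists held between 6916 (shMETTL3) and 35455 peaks (shMETTL3 with olaparib), and their depth is unknown. A missing peak therefore means only that none was listed. Of the marker genes for the labelled cell type, 4 of 12 epithelial genes (CLDN3, EPCAM, KRT18 and KRT8) had a peak within 1 kb of a gene end in the merged RKO control list, beside 3 of 10 leukocyte, 0 of 6 endothelial, 4 of 7 neuronal and 10 of 10 housekeeping genes.

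Open chromatin away from promoters usually marks enhancers, stretches of DNA bound by transcription factors that act on genes at a distance. Enhancers often stand in groups, and the joining distance of 12.5 kb is the one commonly used to stitch enhancers into super-enhancers, which are ranked by histone acetylation or Mediator signal. Neither was measured here, so these clusters carry no such name. Distal to protein-coding genes also does not mean distal to all genes: tRNA genes, which RNA polymerase III transcribes from promoters inside the gene (the A box and the B box), and genes for long non-coding RNAs (lncRNAs) have open starts of their own.

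That limit of the label showed in the annotation. A tRNA gene lay under 37 of the 231 clustered peaks (16.02%, 95% exact interval 11.5 to 21.4) and under 64 of the 16308 other distal peaks (0.392%). Within 1 kb of an end of any annotated gene lay 71 clustered peaks (30.7%) beside 13.1% of the others, and 61 lay in a lncRNA gene (26.4% beside 18.2%). Fewer clustered peaks lay inside a protein-coding gene, 78 (33.8%, 27.7 to 40.3) beside 51.8%. By what they cover, 11 clusters (63 peaks) held tRNA genes, 10 (54 peaks) lay mostly within a protein-coding gene, 4 (21 peaks) mostly within a lncRNA gene, and 16 (93 peaks) between genes or over several. These classes were drawn after the values were seen. Intervals here and in what follows cover counting error only, and peaks of a cluster share their neighbourhood and are not independent.

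Sequences are shown for the peaks that could be read at base level, namely those on an annotated start, because they set single peaks found in all 10 lists beside single peaks found in RKO lists only. A RefSeq start window (250 bases before to 50 after a gene's start, assembly GRCh38.p14) was met by 23 clustered peaks in 18 clusters. These were 25 windows, 7 listed under protein-coding genes and 18 under lncRNA genes. A protein-coding start window was met by 9 of the 23 peaks, including peaks at ST6GALNAC6 whose windows are listed here under a lncRNA gene. Where such a window belongs to a protein-coding gene, it follows a start inside the gene's outer bounds, which is why the peak still counts as distal. All 23 peaks were also in the RKO shControl olaparib list (100%, beside 88.0% of other distal peaks on a start window). In shMETTL3 with olaparib were 22 (95.7% beside 93.4%), in the scored control list 16 (69.6% beside 78.6%) and in shMETTL3 8 (34.8% beside 34.9%). The first window is the start of MIR31HG, the host gene of microRNA miR-31, and it lies under the widest of the 3 peaks of the longest cluster that were in all 10 lists. Capitals mark the SP1 letters GGGCGG or, on the other strand, CCGCCC, and in the windows after it also the AP-1 letters TGACTCA or TGAGTCA. SP1 sites are typical of GC-rich promoters, and AP-1 is the FOS and JUN family of factors that often binds enhancers.
MIR31HG, chr9:21559749-21560048, minus strand: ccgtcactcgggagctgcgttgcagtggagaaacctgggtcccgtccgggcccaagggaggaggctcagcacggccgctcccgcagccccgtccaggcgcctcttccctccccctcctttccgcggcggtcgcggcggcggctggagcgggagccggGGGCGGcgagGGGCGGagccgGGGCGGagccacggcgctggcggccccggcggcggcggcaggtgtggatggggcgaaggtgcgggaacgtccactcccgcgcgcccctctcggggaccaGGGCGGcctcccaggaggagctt
ISG20, chr15:88638766-88639065, plus strand: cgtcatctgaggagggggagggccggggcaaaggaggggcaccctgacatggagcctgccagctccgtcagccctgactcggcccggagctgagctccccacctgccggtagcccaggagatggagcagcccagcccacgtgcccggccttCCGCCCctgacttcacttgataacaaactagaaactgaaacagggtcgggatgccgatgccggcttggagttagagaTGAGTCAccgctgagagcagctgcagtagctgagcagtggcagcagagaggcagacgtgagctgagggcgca
ZNF438, chr10:30999471-30999770, minus strand: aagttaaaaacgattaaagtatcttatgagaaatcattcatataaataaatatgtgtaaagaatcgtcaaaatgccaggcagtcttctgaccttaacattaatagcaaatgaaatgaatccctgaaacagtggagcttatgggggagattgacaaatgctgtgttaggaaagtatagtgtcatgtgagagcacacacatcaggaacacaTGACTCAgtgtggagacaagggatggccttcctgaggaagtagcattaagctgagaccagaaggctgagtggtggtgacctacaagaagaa
RAD51B-AS1, chr14:68685391-68685690, minus strand: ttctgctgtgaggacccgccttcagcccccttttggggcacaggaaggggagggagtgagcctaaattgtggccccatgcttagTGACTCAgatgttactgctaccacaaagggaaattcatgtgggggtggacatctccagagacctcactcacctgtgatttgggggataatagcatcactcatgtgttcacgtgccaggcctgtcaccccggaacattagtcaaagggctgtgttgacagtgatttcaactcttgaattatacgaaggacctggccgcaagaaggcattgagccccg
SPHK1, chr17:76385028-76385327, plus strand: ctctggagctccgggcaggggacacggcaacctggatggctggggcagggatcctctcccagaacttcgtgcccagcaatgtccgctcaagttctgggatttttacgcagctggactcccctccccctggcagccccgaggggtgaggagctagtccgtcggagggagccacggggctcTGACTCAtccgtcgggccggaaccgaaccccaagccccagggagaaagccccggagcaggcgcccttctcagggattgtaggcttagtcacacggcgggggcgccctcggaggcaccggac
Peaks on the windows of ISG20, an exonuclease induced by interferon, and ZNF438, a zinc finger protein, were likewise in all 10 lists. The peak on RAD51B-AS1, antisense to the recombination gene RAD51B, was in all 5 RKO lists and in no LOVO list. The one on SPHK1, sphingosine kinase, was in the 4 RKO lists other than shMETTL3 and in no LOVO list. All windows shown except that of MIR31HG hold AP-1 letters, so they are not typical of the 25. Among those not shown, MAP2K3 (peak in all 10 lists) and MSRB3-AS1 (in all 5 RKO lists and no LOVO list) held none of the motif letters counted below.

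AP-1 letters stood in 6 of the 25 windows (24.0%), beside 8.42% of the 1794 windows on other distal peaks and 4.93% of all 33551 windows. The E-box letters CACGTG, the same on both strands, also stood in 6 (24.0%), beside 8.42% and 7.15%. SP1 letters were in 15 (60.0%), beside 63.6% and 45.0%, and the ETS letters CCGGAA or TTCCGG in 5 (20.0%), beside 23.4% and 17.3%. The TEAD letters GGAATG or CATTCC were in 2 (8%), beside 14.2% and 14.1%, and TATAAA or TTTATA in 3 (12.0%), beside 4.68% and 11.6%. The AP-1 and E-box letters were thus more common, by count, than in either comparison set, over only 25 windows. The share with TATA letters was near that of all windows. Both windows with TEAD letters and 2 of the 3 with TATA letters are overlapping windows of 1 gene, LOC124901288, under the same peak. Both strands were searched in each case, a motif was counted once per window, and clustered peaks away from these windows were not analysed for motifs here.

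The longest cluster ran over 67.2 kb of chromosome 9 (21549432 to 21616653) with 10 peaks. The nearest protein-coding gene end, 67119 bp away, was that of IFNE, interferon epsilon, and 2 of its peaks lay in MIR31HG. Of the 10 peaks, 6 were in the scored RKO control list, 4 in shMETTL3, 9 in shControl with olaparib and 9 in shMETTL3 with olaparib. The 4 left with shMETTL3 were the peak at the MIR31HG start (1287 bp wide in the merged control list) and those of 305, 538 and 555 bp. A peak of 216 bp was in no other list. In LOVO 5 of the 10 were present in both control lists and both olaparib lists and 3 with shMETTL3, and the 5 absent ones were missing from every LOVO list. The 10 peaks, chosen in an RKO list, thus divided into a set found in both lines and a set listed in RKO alone. The span also held a peak between 31.6 and 31.8 kb from its first base in both LOVO control lists. That LOVO peak was also listed with shMETTL3 and olaparib in LOVO, and in no RKO list. Of the RKO set, only the peak of 544 bp was also in the scored RKO control list, the other list of the same untreated group.

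**Figure D1:**
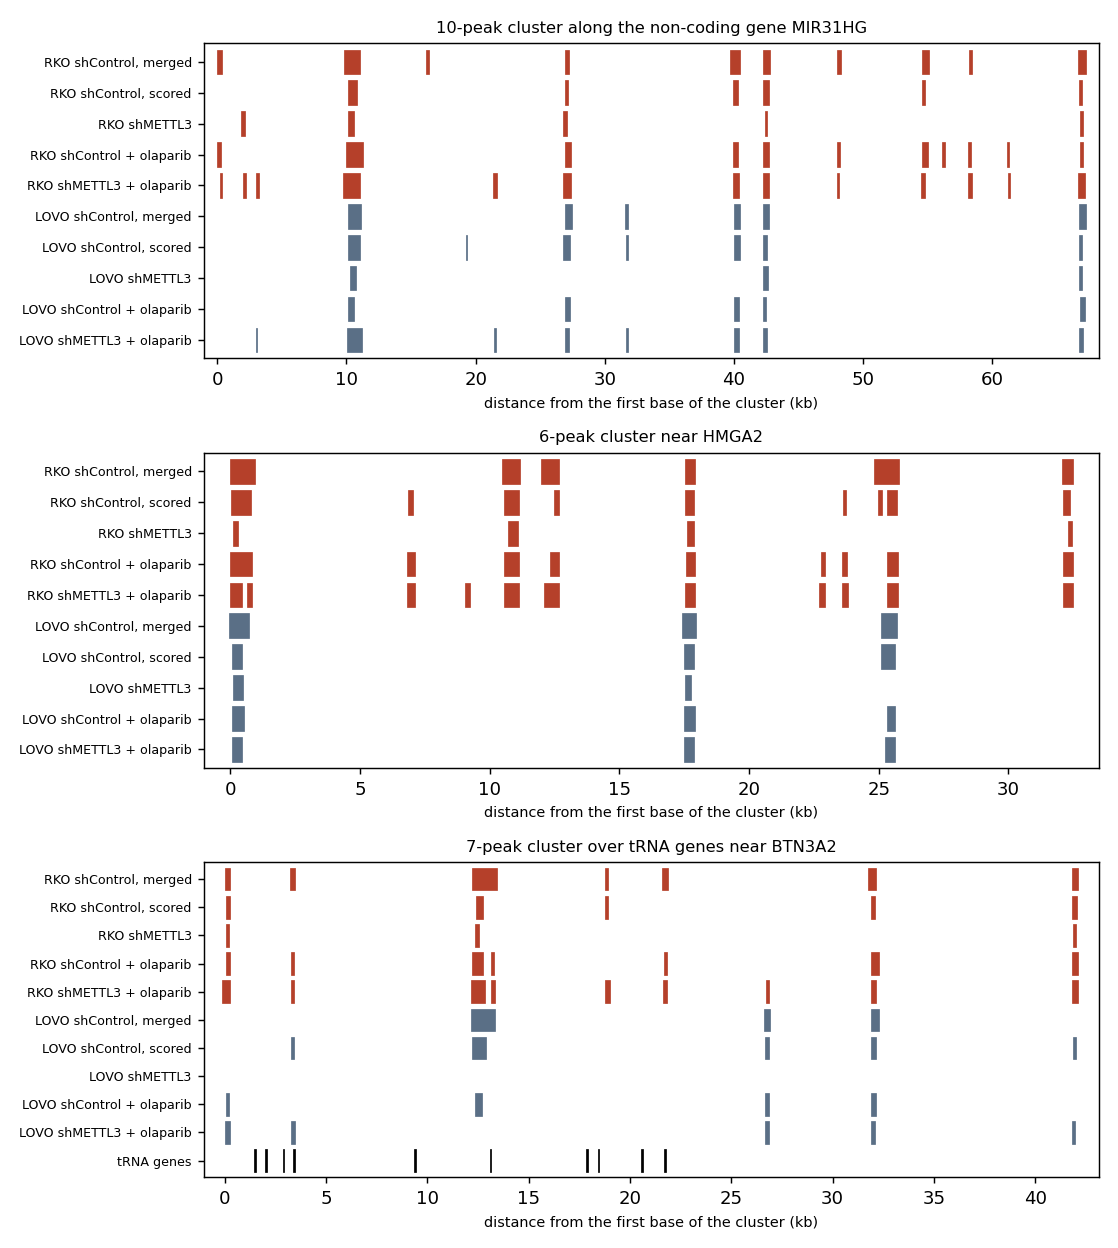
Peaks of the 10 lists (rows of each panel, RKO in red and LOVO in blue) along 3 clusters, by distance in kb from the cluster's first base; tRNA genes are black ticks in the lowest panel. In the MIR31HG panel (top) 9 of the 10 merged control peaks recur with olaparib in RKO and 5 recur in LOVO; near HMGA2 (middle) all 6 recur in 3 of the other RKO lists.

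A cluster of 6 peaks on chromosome 12 (65631591 to 65664067) was the most often found in the other RKO lists. It lay 160393 bp from the nearest protein-coding gene end, that of HMGA2, a chromatin protein of embryonic and tumour cells, and 2 of its peaks lay in MSRB3-AS1. All 6 peaks were in the scored control list and in both olaparib lists, and 4 were in the shMETTL3 list, which gives 91.7% over the 4 lists. In LOVO 3 peaks were present in each list except shMETTL3, which had 2. The 3 absent in LOVO, one of them on the MSRB3-AS1 start, were absent from all 5 LOVO lists.

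Other long clusters stood in a lncRNA gene and in the nuclear lamina gene. Within LINC-PINT, a lncRNA induced by p53, the 6 peaks nearest to MKLN1 had 6 partners in the scored RKO control list, 2 in shMETTL3, 5 in shControl with olaparib, 6 in shMETTL3 with olaparib and 1 in the merged LOVO control list. The 6 peaks inside LMNA, which encodes lamins A and C, had 5, 0, 4 and 6. In LOVO the LMNA peaks had 2 partners in the merged control list and 5 in the scored one. The LMNA cluster was therefore absent from the shMETTL3 list and complete in the list with shMETTL3 and olaparib.

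Among the 7-peak clusters was one on chromosome 12 nearest to RHOF, a small GTPase, with 3 peaks inside SETD1B, a histone H3K4 methyltransferase. It had 4 partners in the scored control list, 0 with shMETTL3, and 5 in each olaparib list. The 6 peaks inside DLGAP1, a scaffold protein of synapses, had 2, 2, 4 and 5 partners. The 6 nearest to PTMA, prothymosin alpha, had 4, 0, 4 and 4. The 6 inside ZNF438 had 6, 2, 6 and 6, so that of the RKO lists only shMETTL3 lacked any of them. At the other end stood 6 narrow peaks (166 to 437 bp) near AP2S1, a subunit of the clathrin adaptor, with 1, 0, 2 and 3 partners (25% over the 4 lists). LMNA, AP2S1, SPHK1 and ISG20 were named after their values were seen.

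Over all clusters, 156 of 231 peaks (67.5%, 61.1 to 73.5) had a partner (at least 1 bp of overlap) in the scored RKO control list, beside 53.4% of the other distal peaks. This pair of lists is for the same group. The 2 lists differ in form and length (27978 merged and 21210 scored peaks), so the share does not measure the spread within a group. With shMETTL3, 45 (19.5%, 14.6 to 25.2) had a partner, beside 13.0%. With olaparib in shControl it was 177 (76.6%, 70.6 to 81.9), beside 64.0%, and with shMETTL3 and olaparib 194 (84.0%, 78.6 to 88.5), beside 73.4%. Clustered peaks were thus listed more often than the others in all 4 lists, by 14.1 (7.78 to 19.9), 6.49 (1.87 to 12.1), 12.7 (6.75 to 17.7) and 10.6 (5.29 to 14.8) percentage points, and the order of the lists was the same in both sets. The shMETTL3 difference was smaller, with an interval that held 0, when 50% of the peak had to be covered (2.24 points, -0.497 to 6.36), when clusters were built in the scored control list (4.85 points, -1.35 to 12.4) and when peaks had to lie over 1 kb from any annotated gene end (3.84 points, -1.93 to 12.1). The same difference was larger over 5 kb from protein-coding gene ends (11.6 points, 5.07 to 19.6). With 8 or more peaks it was 26.9 points (3.74 to 55.7), over 10 peaks of 1 cluster. It was 5.31 points (3.06 to 7.77) at a gap of 25 kb and 6.05 (0.808 to 12.7) without the tRNA clusters. A gap of 5 kb gave -3.09 points (-11.3 to 27.3). The shMETTL3 list was the shortest of the 5 RKO lists and the list with shMETTL3 and olaparib the longest.

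**Figure D2:**
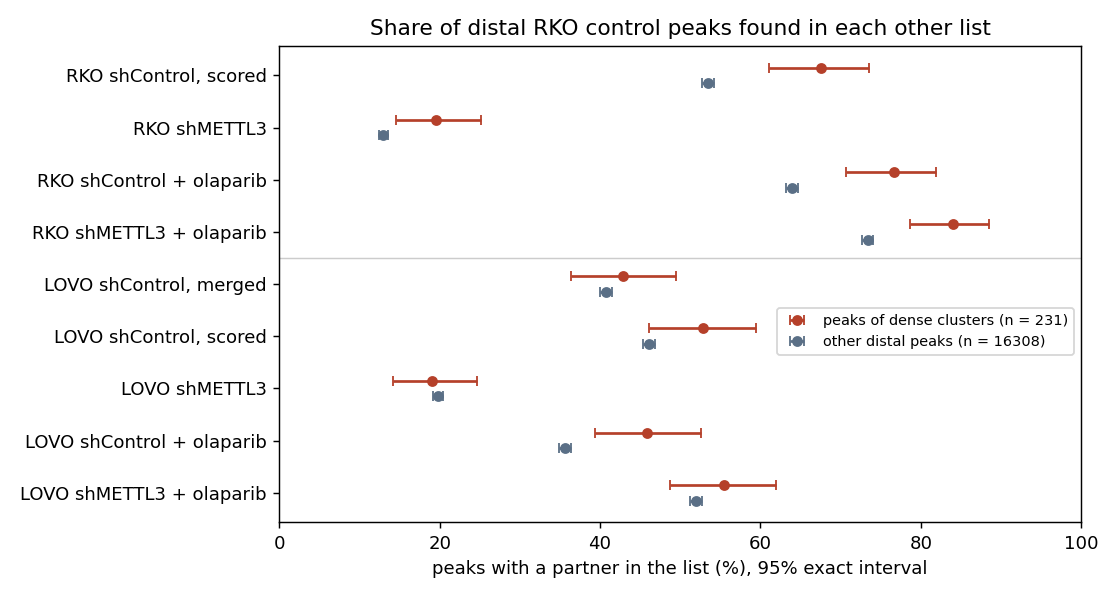
Share of clustered peaks (red, n = 231) and of other distal peaks (blue, n = 16308) of the merged RKO control list that had a partner in each of the 9 other lists, with 95% exact intervals. Clustered peaks lie to the right in the 4 RKO lists (67.5, 19.5, 76.6 and 84.0%), while the intervals overlap in every LOVO list except shControl with olaparib.

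Width moved with this difference. Clustered peaks had a median width of 410 bp (166 to 1902) and other distal peaks one of 319 bp (164 to 2771), and peaks of the widest class were found again more often than those of the narrowest in each of the 4 RKO lists. When both sets were compared within 5 classes of width, the differences became 5.12, 0.864, 4.17 and 4.04 points. For shMETTL3 the clustered peaks therefore stood 0.864 points above other distal peaks of like width. In the widest class (522 to 2771 bp) 27 of 83 clustered peaks (32.5%, 22.6 to 43.7) were in the shMETTL3 list, beside 36.8% of the others. In the narrowest class (164 to 218 bp) none of 27 was, for which the exact interval reaches 12.8%, beside 2.83%. In the middle class (285 to 365 bp) the 2 sets stood furthest apart in the scored control list, with 70.6% (52.5 to 84.9) of 34 beside 48.3%.

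**Figure D3:**
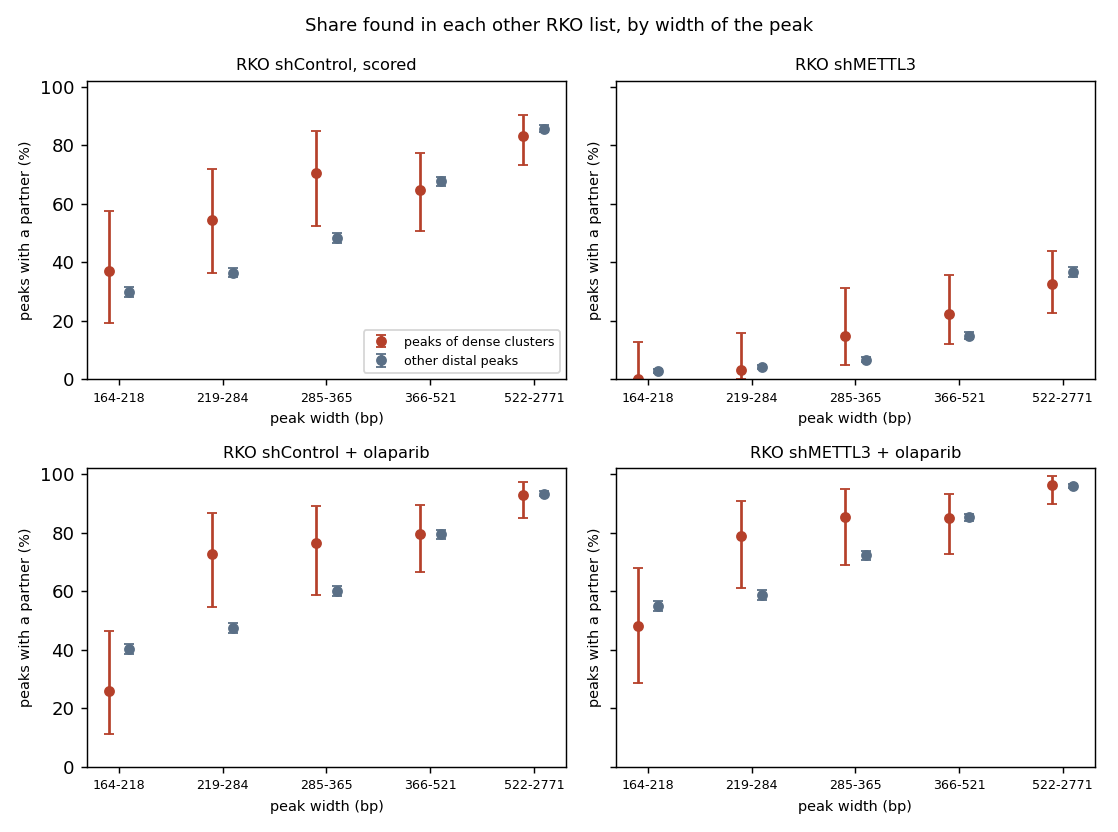
Share of peaks with a partner in each of the 4 other RKO lists, by width of the peak in the merged control list in bp, for clustered peaks (red) and other distal peaks (blue), with 95% exact intervals. Shares are higher in the widest than in the narrowest class in both sets, and in the widest class the sets lie close together (83.1 and 85.7% in the scored control list).

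The same held within a cluster. Its widest peak was found in 34 of 41 clusters in the scored control list, in 17 with shMETTL3, in 38 with olaparib in shControl and in all 41 with shMETTL3 and olaparib. Its narrowest peak was found in 20, 1, 19 and 25. Peaks at the outer ends of a cluster were found in 70.7, 23.2, 72.0 and 80.5% and inner ones in 65.8, 17.4, 79.2 and 85.9%, with overlapping intervals in each list. The 5 widest peaks measured 1314 to 1902 bp, among them those at ST6GALNAC6 (1475 bp), a sialyltransferase gene, F12 (1331 bp), the gene of a coagulation factor, and ZNF213 (1314 bp). All 5 were in the scored control list and in both olaparib lists of RKO, and those at F12 and ZNF213 also in shMETTL3, while that at ST6GALNAC6 was not.

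Read across lists, the clustered peaks fell into few patterns. In all 4 other RKO lists were 42 (18.2% beside 12.1% of the others), in every list but shMETTL3 96 (41.6% beside 35.4%), in both olaparib lists alone 27 (11.7% in both sets), and in none 25 (10.8% beside 21.0%). Of the 45 peaks in the shMETTL3 list, 42 were thus in all the RKO lists. No cluster kept all its peaks with shMETTL3, and 14 of 41 kept none, whereas each cluster kept at least 1 in the 3 other lists. All peaks were found in 8 clusters in the scored control list, in 9 with olaparib in shControl and in 17 with shMETTL3 and olaparib.

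**Figure D4:**
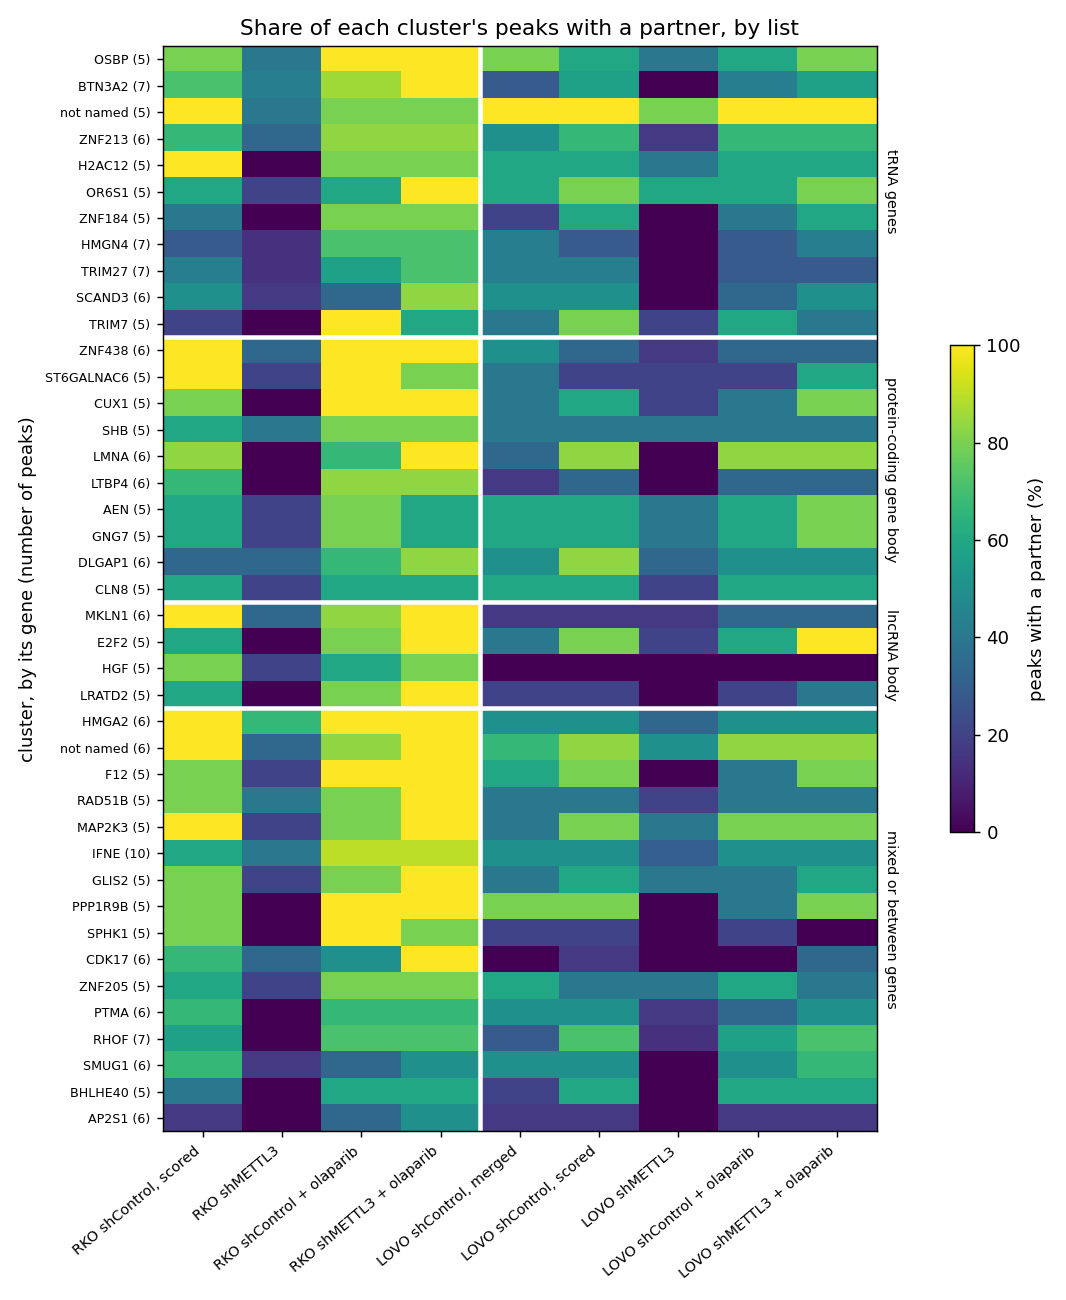
Share of each cluster's peaks with a partner (colour, 0 to 100%) in the 9 other lists (columns); each row is 1 of the 41 clusters, most of them named by the host or nearest protein-coding gene, with its number of peaks, and grouped by class. The RKO shMETTL3 column has 14 clusters at 0 and its highest value at HMGA2 (4 of 6 peaks), and the row of the HGF cluster is at 0 in every LOVO column.

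Olaparib was compared with no treatment over the scored lists, which the choice of clusters did not use. Of 156 clustered peaks in the untreated scored list, 16 (10.3%, 5.98 to 16.1) were missing with olaparib in shControl, beside 8.69% of the other distal peaks. Of the 75 not in the untreated scored list, 37 (49.3%, 37.6 to 61.1) had a partner with olaparib, beside 32.6%. All 75 were by definition in the merged untreated list, so that these are peaks of untreated cells too. Between shControl and shMETTL3 under olaparib, 10 of 177 (5.65%, 2.74 to 10.1) were missing, beside 6.70%, and 27 of 54 (50%, 36.1 to 63.9) were added, beside 38.0%. The losses lay near the background in both comparisons. In LOVO, 22 of 122 (18.03%, 11.7 to 26.0) were missing with olaparib, beside 27.8% of the other distal peaks.

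Each span was then searched for a dense group in the other lists. The span of a cluster held 5 or more distal peaks of the scored control list in 13 of 41 clusters (31.7%, 18.1 to 48.1), of the shMETTL3 list in 1 (2.44%, 0.0617 to 12.9), that at MIR31HG, and of the olaparib lists in 21 (51.2%) and 29 (70.7%, 54.5 to 83.9). By the same rule applied to each list, the scored control list had 23 clusters, shMETTL3 0, olaparib in shControl 53, and shMETTL3 with olaparib 108, of which 26 touched an original cluster. Peaks with no partner in the merged control list numbered, inside the spans, 1 with shMETTL3, 16 with olaparib in shControl and 27 with shMETTL3 and olaparib. These were 2.17, 7.92 and 11.5% of the distal peaks of those lists inside the spans. Over all distal peaks of the same lists the shares were 8.55, 24.4 and 41.6%. The spans were chosen for being dense in merged control peaks, so that low numbers here follow from the choice. Most of the 27 fell at HMGA2 (4), MIR31HG (4), MKLN1 (3), and TRIM27, ST6GALNAC6 and ZNF438 (2 each), 10 further clusters having 1 each.

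Scores, which the authors' lists give per peak and which are compared here only within a list, ran the other way. Clustered peaks matched 161 peaks of the scored control list with a median score of 7.06, beside 8.04 for peaks matching other distal ones, and stood at a median percentile of 42.7 and 56.2 among its distal peaks. With olaparib in shControl the medians were 6.83 and 8.80 (percentiles 34.2 and 58.5), and with shMETTL3 and olaparib 7.58 and 9.74 (41.7 and 62.7). The peaks of the clusters were therefore listed more often and were wider, at lower scores. In the 3 scored LOVO lists the percentiles were 53.7, 50.3 and 46.6, beside 60.0, 58.9 and 60.5.

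The tRNA genes were treated apart because 11 of the 41 clusters held them. Of 439 annotated tRNA genes on chromosomes 1 to 22, 70 fell in the spans of 11 clusters, and 6 of these clusters (37 peaks) lay on chromosome 6, in the array beside the histone genes. Chromosome 6 thus held 16.02% of clustered peaks and 5.02% of the other distal ones. For alanine there were 11 genes, for lysine, leucine and arginine 7 each, and for proline, threonine and valine 6 each. One gene, the threonine tRNA TRT-TGT6-1 near TRIM7, could be read whole from a start window. Its sequence is shown with the B box letters GTTCNANNC, to which polymerase III factors bind, in capitals at bases 52 to 60.
TRT-TGT6-1, chr5:181191687-181191758, minus strand: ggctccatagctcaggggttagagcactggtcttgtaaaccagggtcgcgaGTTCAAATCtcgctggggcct
This gene was covered by a peak in the merged RKO control list and in all 5 LOVO lists, and in none of the 4 other RKO lists.

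Across lists, 42 of the 70 tRNA genes in the spans (60.0%) were under a peak in the merged RKO control list, 18 (25.7%) in the scored one, 8 (11.4%) with shMETTL3, 26 (37.1%) with olaparib in shControl and 28 (40%) with shMETTL3 and olaparib. In LOVO the same 70 genes gave 25, 23, 8, 20 and 26. Of the 369 tRNA genes elsewhere 32.2% were under a peak in the merged RKO control list and 5.96% with shMETTL3. Clusters were chosen by peaks of the merged RKO control list, so the higher share in the spans follows at least in part from the choice in that list. Shares were also higher in the spans in the other lists, such as merged LOVO control (35.7% beside 21.4% elsewhere). Whether that carries over from the choice was not tested, so no trait of these tRNA genes is read from it. No peak of any list covered 27 of the 70, and 1 was covered in all 10. Many tRNA genes are near-identical copies, and no source used here says how the authors placed reads that fit several copies, so single tRNA genes are uncertain.

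**Figure D5:**
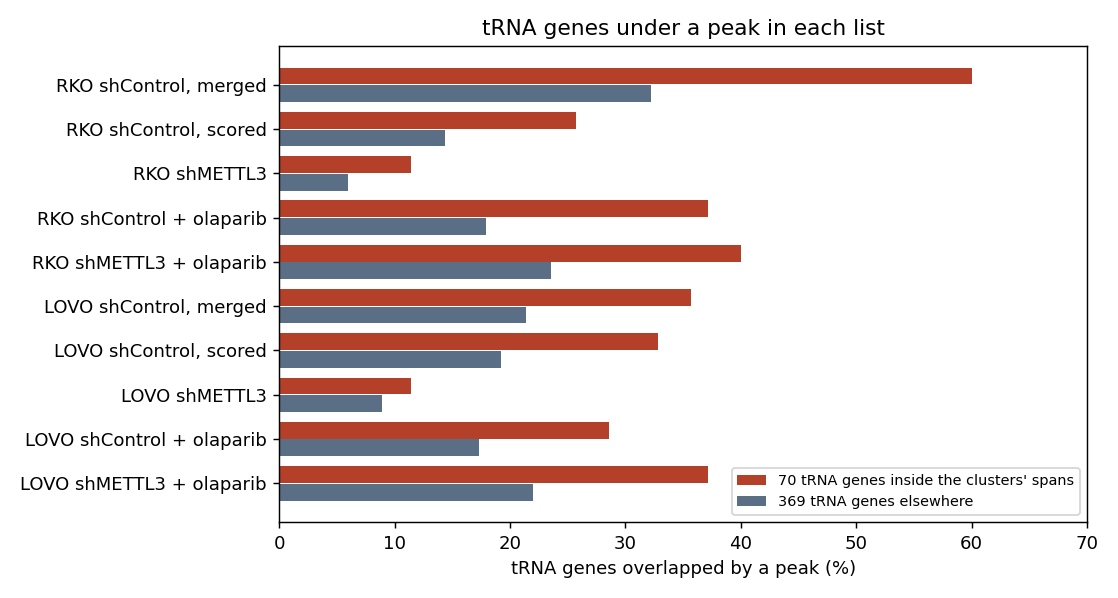
Share of tRNA genes under a peak in each of the 10 lists, for the 70 genes inside the spans of the clusters (red) and the 369 genes elsewhere on chromosomes 1 to 22 (blue). The RKO shMETTL3 bars are the shortest of RKO (11.4 and 5.96%). In the merged RKO control list the red bar is longer partly by construction, because the spans were chosen by its peaks. For the other lists the cause was not tested.

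Peaks on tRNA genes were set beside the other clustered peaks by the share found again. The 37 had partners in 56.8% in the scored control list, 27.0% with shMETTL3, 83.8% with olaparib in shControl and 83.8% with shMETTL3 and olaparib. For the 194 peaks without a tRNA gene the shares were 69.6, 18.04, 75.3 and 84.0%. Intervals overlapped in each of these lists, which over 37 peaks does not show that the shares were alike. In LOVO the 37 had 59.5% (merged control), 64.9% (scored control), 18.9% (shMETTL3), 54.1% (olaparib in shControl) and 64.9% (shMETTL3 with olaparib). The 194 had 39.7, 50.5, 19.1, 44.3 and 53.6% in the same order. Of the largest tRNA clusters, that nearest to BTN3A2, a butyrophilin gene (chromosome 6, 26309738 to 26351864, 7 peaks, 10 tRNA genes), had 5, 3, 6 and 7 partners. That nearest to HMGN4, a nucleosome-binding protein (7 peaks), had 2, 1, 5 and 5, and that nearest to TRIM27, a ubiquitin ligase (7 peaks), 3, 1, 4 and 5. The 6 peaks nearest to ZNF213 had 4, 2, 5 and 5. Each of these 4 clusters had more partners in each olaparib list than in the untreated shMETTL3 list, the shortest of RKO. The same was true of every other cluster, with or without tRNA genes.

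Between the lines, 99 of the 231 RKO peaks (42.9%, 36.4 to 49.5) had a partner in the merged LOVO control list, beside 40.7%. The shares were 52.8% in the scored LOVO control list, beside 46.1%, 19.0% with shMETTL3, beside 19.8%, 45.9% with olaparib in shControl, beside 35.7%, and 55.4% with shMETTL3 and olaparib, beside 52.0%. Within classes of width these differences were -4.72, -0.950, -6.36, 2.02 and -3.41 points. No LOVO list held 86 of the peaks (37.2% beside 42.0%), all 5 held 43 (18.6% beside 18.3%), and 20 were in all 9 other lists. The 95% interval of the unadjusted difference lay above 0 in the scored LOVO control list (6.71 points, 0.231 to 13.1) and with olaparib in shControl (10.2 points, 3.89 to 16.7), and it held 0 in the other 3 LOVO lists. After the comparison within width classes the clustered peaks stood above the others only with olaparib in shControl, by the 2.02 points given.

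How many clusters were shared depended on the list. LOVO had 100 clusters of its own in the merged control list, and 3 of them (3%) touched 3 of the 41 RKO clusters (7.32%), among them those at BHLHE40 and OSBP. In the scored LOVO control list it had 342, of which 11 (3.22%) touched 11 of the 41 (26.8%). Clusters of the scored RKO control list touched 12 of the 41 (29.3%). The cluster nearest to HGF, the ligand of the MET receptor (chromosome 7, 81515142 to 81534789), was the only one with no peak in any LOVO list. It lay 164221 bp from that gene, with 4 of 5 peaks in a lncRNA gene, and had 4, 1, 3 and 4 partners in the other RKO lists. By class, peaks of the 4 lncRNA clusters were found in the merged LOVO control list in 19.0% (5.45 to 41.9), those between genes or over several in 41.9% (31.8 to 52.6), those of protein-coding genes in 44.4% (30.9 to 58.6) and those of the 11 tRNA clusters in 50.8% (37.9 to 63.6). The median peak widths of these classes were 335, 390, 387.5 and 474 bp.

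Genes of the pathway lists were then looked up at the clusters. The 18 lists held 320 genes. Among the lists were AP-1 subunits, YAP and TEAD targets, TGF-beta signalling, Wnt targets, p53 targets, receptor tyrosine kinases, m6A machinery and DNA repair. Of the 320 genes 3 (0.938%) were counted at a cluster, as were 67 of 19122 protein-coding genes (0.350%). A cluster can count for several genes, because its peaks can differ in nearest gene. Among the 3 were BHLHE40, a transcriptional repressor of the circadian clock and hypoxia, and RAD51B, a gene of homologous recombination. The 5 peaks nearest to BHLHE40 had 2, 0, 3 and 3 partners in the 4 other RKO lists. Those at RAD51B had 4, 2, 4 and 5.

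The threshold of 5 peaks cut through a continuous range: 23 clusters had exactly 5 peaks, 13 had 6, 4 had 7 and 1 had 10, while 80 chains of 4 lay just outside. Peaks in chains of 5 and of 4 had median widths of 397 and 396 bp. They were found in the scored control list in 70.4 and 65.9%, with shMETTL3 in 15.7 and 20.0%, with olaparib in shControl in 82.6 and 75.6%, and with shMETTL3 and olaparib in 84.3 and 81.6%. In 4 clusters the largest gap was over 12 kb, and the largest gap of all was 12.4 kb, at MIR31HG.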

How the data were processed

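Libraries of 20 samples were made with a commercial ATAC-seq kit, per the labels' protocols. The submitters' processing notes list the build hg38 and, in no stated role, MACS2 2.2.7.1, DiffBind 3.0.15, Bowtie2 2.4.2 and Trim Galore 0.6.6. Read shifting, read filters and the combination of samples are not stated there. The deposited data are 10 peak lists from the authors. The 4 merged lists hold intervals only, and the 6 others also hold a score per peak whose meaning the authors do not state, with peak names of replicate 1 per the files. Scores were ranked within a list only. Depth is unknown, and 0 columns of sample values were left unused.

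Distal peaks, chains and overlaps were computed with pandas 2.3.3 and numpy 2.4.6, checked against bedtools 2.31.1 and tested on simulated data. Intervals are exact (Clopper-Pearson, scipy 1.17.1) for shares and Newcombe (statsmodels 0.14.6) for differences. Gene ends, tRNA and lncRNA genes and start windows come from RefSeq tables of GRCh38.p14, the assembly that hg38 names; exons and UTRs were not told apart, and all 320 list genes matched. No peak was dropped for a low value. Clusters are named by the protein-coding gene holding most of their peaks, otherwise by the nearest gene end. Those described are the 10 with the most peaks (ties by covered bases), the cluster of 8 or more peaks, those wholly shared with or absent from LOVO, those at list genes, those of the 5 widest peaks and those with the most added peaks with shMETTL3 and olaparib; some clusters that this rule names are not reported here. Clusters, members and gene lists were chosen with earlier results of these data known, and the motifs, classes and tRNA grouping after the values were seen. Alternatives varied the overlap, the gap, the minimum number of peaks, the distance to genes, the control list and the width. No replicate could be left out, because the lists are named for groups.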

Additional observations from a re-analysis of the deposited data

How the results depend on the processing

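Of 78 recomputed values 42 stayed in range, and 1 turned direction. In range meant within the counting interval of the main value. The number of peaks has no such interval and was judged by its ratio to the main number. With 50% of a peak covered, the shares found were 49.8% (scored RKO control), 7.36% (shMETTL3), 60.2% (olaparib in shControl) and 64.5% (shMETTL3 with olaparib). Within width classes the differences from other distal peaks were 0.864 points (shMETTL3) and 5.12 points (scored control). A gap of at most 5 kb left 10 peaks in 2 clusters, with 90%, 10% and 100% found in the scored control, shMETTL3, and shMETTL3 with olaparib, and 30% in the merged LOVO control. The differences were then -3.09 points for shMETTL3, the value that turned, and 36.4 points for the scored control, and 0% of clusters were dense again with shMETTL3. A gap of 25 kb gave 1075 peaks in 180 clusters. With 8 or more peaks 10 peaks of 1 cluster remained: 60%, 40%, 90% and 90% were found in the 4 RKO lists and 50% in LOVO, with differences of 26.9 points for shMETTL3 and 6.38 points for the scored control, 0% lost with olaparib and 0% dense again. A distance of 5 kb from gene ends left 134 peaks. Clusters built in the scored control list held 145 peaks, of which 89.7% were found with olaparib in shControl and 90.3% with shMETTL3 and olaparib, and 0% of them were dense again with shMETTL3. A pair of alternatives was chosen after seeing the data. Peaks over 1 kb from any annotated gene end gave 103 in clusters, with 73.8% found in the scored control and 35.9% in LOVO, a difference of 21.9 points in the scored control, 5.26% lost with olaparib and 0% dense again. Without the clusters that hold tRNA genes all 10 values stayed in range. Fewer peaks and clusters enter most of these settings; for the other changes the cause was not tested. Shares in the scored list itself were not run with clusters built in that list. No paired analysis was possible because no list is tied to a numbered pair of samples across groups, and 3 of the 4 groups of a line have 1 list. Depth, unknown here, limits every statement on a missing peak.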

Other observations

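Partners covered the clustered peaks only in part. Among clustered peaks with a partner, a median of 65.8% of the bases was covered in the scored RKO control list, 41.9% with shMETTL3, 74.0% with olaparib in shControl and 72.9% with shMETTL3 and olaparib, beside 68.7, 44.7, 79.1 and 77.8% for other distal peaks. No clustered peak covered an annotated microRNA, snoRNA or snRNA gene (0 of 231 for each, for which the exact interval reaches 1.58%), beside 34, 8 and 20 of the 16308 other distal peaks. No cluster lay on chromosomes 4, 13, 20, 21 or 22, which held 590, 358, 558, 201 and 421 of the other distal peaks, while chromosome 12 held 5 clusters with 30 peaks (13.0% of clustered peaks beside 5.10% of the others).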
